A study of Homo sapiens with 16 samples.

Results

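The 40 genes described here were chosen by name as glycolytic enzymes, glucose and lactate transporters and hypoxia-induced genes, out of the 64252 gene identifiers that each deposited table holds. They were proposed with earlier results of these data known. All 40 were found by symbol, and all 40 were measured in every library. By role they are 2 genes of glucose uptake, 8 enzymes of upper glycolysis, 7 enzymes of lower glycolysis, 4 genes of lactate formation and export, 4 regulators of flux, the hypoxia-inducible factor subunit HIF1A and 14 hypoxia targets that are no glycolysis genes.

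RNA of Jurkat and 6T-CEM, 2 established human lines of T-cell acute lymphoblastic leukaemia (T-ALL), was sequenced after transfection with short hairpin RNAs, either a control (sh-NC) or a hairpin directed at SH2D1A (sh-SH2D1A). SH2D1A encodes SAP, an adaptor protein of lymphocytes that docks on receptors of the SLAM family. The 8 groups, with 2 libraries each, were Jurkat sh-NC and Jurkat sh-SH2D1A on days 8 and 10, and 6T-CEM sh-NC and 6T-CEM sh-SH2D1A on days 5 and 10. The labels state neither what the days are counted from, nor the number of hairpins per target, nor whether the 2 libraries of a group came from separate cultures, so the p-values reflect only how far these libraries differ among themselves. The 4 tables, one for each line and day, have sh-NC libraries of their own.

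Glycolysis splits glucose into pyruvate through a fixed chain of enzymes, most of which exist as isoforms encoded by separate genes. Proliferating lymphoblasts use it heavily and turn much of the pyruvate into lactate, which leaves the cell through monocarboxylate transporters. When oxygen is short, the prolyl hydroxylases no longer mark HIF-1α for destruction, and the HIF dimer binds a short core sequence in the promoters and enhancers of glycolytic genes and of genes for cell survival, angiogenesis and pH control.

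The promoters of 34 members were in the RefSeq table used here (GRCh38.p14, 64 windows, since a gene can have several starts), and no window was in it for SLC2A3, HILPDA, SLC16A1, BNIP3L, NDRG1 and VEGFA. The 250 bases before each start were searched on both strands for ACGTG and GCGTG, the core of the hypoxia response element, and for CACGTG, the E-box, which holds ACGTG on both strands and so counts as 2 matches of it. ACGTG was in 25 of the 64 member windows (39.1%) and in 18.5% of all 35116 windows, GCGTG in 23 (35.9%) and in 32.2% of all, and CACGTG in 8 (12.5%) and in 6.34% of all. A match is a description of the letters and not of a bound site. The windows below belong to 3 members that were lower with sh-SH2D1A and to LDHB, which was called in no table. They were chosen after the values had been seen, are printed 5′ to 3′ on the gene's strand, and have in capitals each match on either strand (CACGT and CACGC are the 2 cores read on the other strand).
ALDOC promoter, chr17:28576896-28577145, minus strand: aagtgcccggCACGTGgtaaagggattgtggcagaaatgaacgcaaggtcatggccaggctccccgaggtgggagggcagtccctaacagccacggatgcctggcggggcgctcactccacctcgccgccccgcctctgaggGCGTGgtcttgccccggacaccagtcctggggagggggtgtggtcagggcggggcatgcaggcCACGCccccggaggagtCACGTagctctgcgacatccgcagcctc
BNIP3 promoter, chr10:131981924-131982173, minus strand: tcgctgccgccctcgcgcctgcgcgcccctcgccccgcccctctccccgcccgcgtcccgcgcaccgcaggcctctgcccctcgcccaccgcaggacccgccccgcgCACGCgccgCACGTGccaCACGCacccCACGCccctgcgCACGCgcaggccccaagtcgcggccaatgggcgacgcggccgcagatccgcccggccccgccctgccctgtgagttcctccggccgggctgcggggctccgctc
LDHA promoter at the first RefSeq start, chr11:18394313-18394562, plus strand: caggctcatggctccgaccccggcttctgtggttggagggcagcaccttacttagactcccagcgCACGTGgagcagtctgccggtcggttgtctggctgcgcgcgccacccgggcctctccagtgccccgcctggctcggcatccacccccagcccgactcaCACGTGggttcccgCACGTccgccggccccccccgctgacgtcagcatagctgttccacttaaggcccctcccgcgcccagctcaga
LDHB promoter, chr12:21657843-21658092, minus strand: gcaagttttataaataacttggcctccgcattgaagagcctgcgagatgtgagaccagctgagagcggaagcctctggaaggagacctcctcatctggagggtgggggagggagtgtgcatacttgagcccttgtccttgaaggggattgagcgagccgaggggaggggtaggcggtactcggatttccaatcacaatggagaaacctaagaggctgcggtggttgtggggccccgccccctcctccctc
The ALDOC window held 3 matches of ACGTG and 2 of GCGTG, that of BNIP3 2 and 4, and that of LDHA 5 and 0, with 1, 1 and 2 E-boxes. In the LDHB window neither core was found. Other members did not share that contrast. No core was in the windows of SLC2A1 and PKM, which were called lower in 2 tables and 1. PFKP, PFKM, PDK3 and MXI1, called in no table, had a core in at least 1 window, and EGLN3, also called in none, had 0. Whether the matches go with the changes was not tested.

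Total counts ranged from 27217899 to 33788024 per library, so that a count of 0 would allow up to 3 counts, or 0.0888 to 0.110 CPM (counts scaled to library size), a limit that covers counting error only. Levels are CPM scaled by TMM over all 16 libraries, and changes are log2 ratios (sh-SH2D1A to sh-NC), called at an adjusted p under 0.05. Values after ± are standard errors that edgeR does not itself report. They were derived as the absolute log2 change divided by the square root of edgeR's F statistic. SH2D1A itself was lower in all 4 tables. In Jurkat SH2D1A stood at 163 and 175 CPM in sh-NC libraries against 53.8 and 49.4 in sh-SH2D1A libraries on day 8, and at 176 and 204 against 60.1 and 65.3 on day 10. In 6T-CEM SH2D1A stood at 189 and 200.4 CPM against 55.4 and 62.6 on day 5, and at 156 and 154 against 80.7 and 74.5 on day 10. For SH2D1A the log2 change was -1.72 ± 0.07 and -1.59 ± 0.10 in Jurkat on days 8 and 10, and -1.71 ± 0.12 and -0.996 ± 0.05 in 6T-CEM on days 5 and 10 (edgeR adjusted p = 3e-05, 6.29e-05, 0.00191 and 1.14e-05). The fall was smaller in 6T-CEM on day 10 than on day 5, with a difference of 0.72 ± 0.13 (edgeR adjusted p = 0.0181 over all genes). SH2D1A lies over STAG2 on the same strand, so that reads of the 2 genes may be split unequally. Of 12 T cell markers 11 had at least 1 CPM in every library, and their sum ranged from 2056 to 4097 CPM. With sh-SH2D1A 8 of these 12 were lower and 1 higher in Jurkat on day 8, 3 and 1 on day 10, 0 and 0 in 6T-CEM on day 5 (edgeR, with 3 and 1 at an unadjusted p under 0.05) and 6 and 1 on day 10. Over all tested genes 7.13, 2.52, 1.51 and 7.42% were called lower in these 4 tables, and 5.23, 1.26, 0.606 and 6.61% higher. Summed myeloid markers (7 genes), epithelial and packaging cell markers (5) and erythroid markers (5) reached at most 2.86, 5.72 and 4.21 CPM, and none of these genes was at 0 in all libraries. The erythroid sum was 4.09 to 4.21 CPM in 6T-CEM day 10 sh-SH2D1A and 1.51 to 1.55 in its sh-NC libraries. Summed B cell markers (6 genes) ranged from 16.7 to 75.7 CPM, of which CD79A, at a mean of 41.3 CPM, made the most. In every table the B cell sum was lower with sh-SH2D1A without overlap, at 45.1 to 45.2 CPM against 49.2 to 50.8 in Jurkat on day 8, 55.6 to 63.01 against 63.4 to 75.7 on day 10, 16.7 to 23.0 against 25.01 to 32.02 in 6T-CEM on day 5 and 27.02 to 30.5 against 44.8 to 45.7 on day 10. Mitochondrial genes took 3.95 to 9.19% of the counts, and in 6T-CEM on day 5 7.98 and 9.19% with sh-SH2D1A against 7.44 and 7.63% with sh-NC. The part of these markers and of the mitochondrial share in the results was not tested. In bulk RNA, fewer cells that express a gene and less RNA per cell cannot be told apart.

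Of the 40 glycolysis and hypoxia genes 31 were called lower with sh-SH2D1A in at least 1 of the 4 tables and 9 in none, and 2 were called higher, in 1 table each. The matching shares of all genes were not computed, so these counts have no background. The members were proposed with earlier results of these data known, so the comparisons with all genes below describe them and do not test them. Of the 39 tested in all 4 tables, 22 had both sh-SH2D1A libraries below both sh-NC libraries in every table, against 6.75% of the 17521 genes tested in all 4. In Jurkat on day 8, 29 of 40 members were called lower, against 7.13% of the 19266 genes tested, and 1 was called higher, against 5.23%. In Jurkat on day 10, 13 of the 39 tested were called lower (2.52% of 19079 genes) and 0 higher (1.26%). CA9 was too low to be tested there. On day 5 in 6T-CEM, 5 of 40 were called lower (1.51% of 19482 genes) and 0 higher (0.606%). On day 10 in 6T-CEM, 18 of 40 were called lower (7.42% of 19610 genes) and 1 higher (6.61%). At an unadjusted p under 0.05, 0 members were higher in Jurkat on day 10 and 0 in 6T-CEM on day 5, and the Wald test of DESeq2 also called 0 higher in both.

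The median log2 change of the members was -0.43, -0.28, -0.40 and -0.20 in these 4 tables, where the median of all tested genes lay between -0.003 and 0.004. Both sh-SH2D1A libraries lay below both sh-NC libraries for 33 members in Jurkat on day 8 (28.3% of all genes), 29 on day 10 (24.5%), 32 in 6T-CEM on day 5 (25.3%) and 25 on day 10 (28.7%). They lay above for 4 members (29.1% of all genes), 5 (24.2%), 0 (23.3%) and 6 (28.1%). The mean of the 4 changes, from one fit of all 16 libraries, was called lower for 30 of 40 members (12.3% of 22032 genes) and higher for 1 (10.7%). The 40 genes together took 1.70 and 1.78% of all counts in Jurkat day 8 sh-NC and 1.43 and 1.41% where SH2D1A was targeted, and 1.68 and 1.58% against 1.39 and 1.23% in 6T-CEM on day 5. On day 10 they took 1.15 and 1.12% against 1.02 and 0.984% in Jurkat, and 1.14% in both sh-NC libraries against 1.04 and 1.02% in 6T-CEM. These shares mostly reflect the 10 abundant enzymes listed below, which alone took 1.44 and 1.51% in Jurkat day 8 sh-NC.

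**Figure D1:**
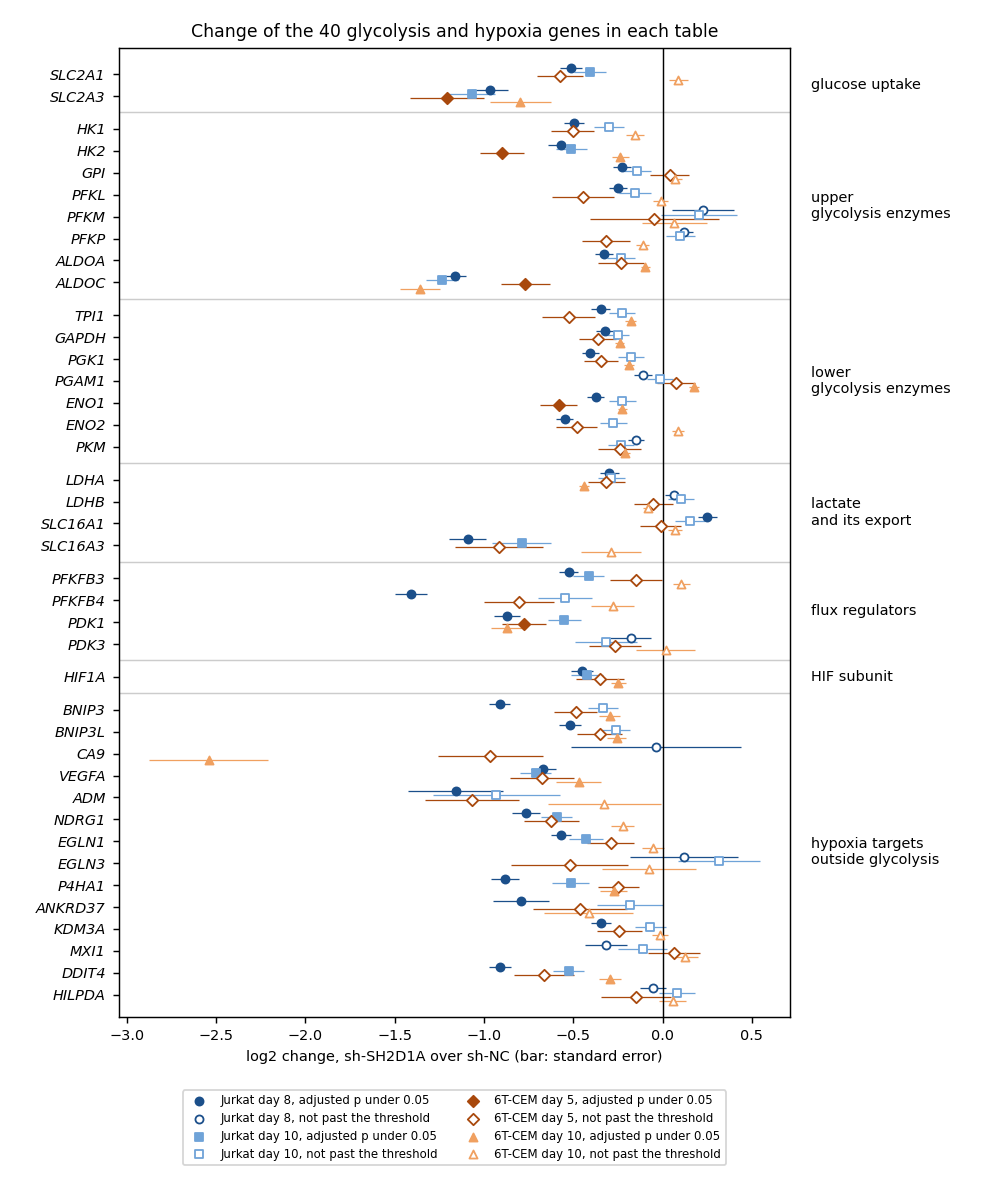
The log2 change of each of the 40 genes (rows, by role) with sh-SH2D1A in the 4 tables (marker and colour), with the standard error as a bar. Filled markers are past the threshold, open ones are not. Most markers lie left of 0, SLC2A3, HK2, ALDOC and PDK1 are filled in all 4 tables, and CA9 in 6T-CEM on day 10 is farthest left at -2.54.

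The calls depended on the library in part. Without Jurkat day 8 sh-SH2D1A replicate 2, 19 members were called lower in place of 29, and without Jurkat day 10 sh-SH2D1A replicate 1, 8 in place of 13. For 6T-CEM on day 5 the count of 5 became 1 without sh-NC replicate 1, 2 without sh-NC replicate 2, 23 without sh-SH2D1A replicate 1 and 20 without sh-SH2D1A replicate 2. When genes with low counts were kept, edgeR called 0 genes of the whole Jurkat day 10 table, where 26 members were lower at an unadjusted p under 0.05, and the Wald test of DESeq2 called 23 members lower.

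The 2 glucose transporters differed in size of change. SLC2A3 encodes GLUT3, the high-affinity transporter of neurons and activated leukocytes, and was called lower in all 4 tables. In Jurkat SLC2A3 stood at 24.75 and 27.1 CPM in sh-NC libraries against 13.3 and 13.4 in sh-SH2D1A libraries on day 8, and at 25.8 and 28.2 against 13.5 and 12.2 on day 10. In 6T-CEM SLC2A3 stood at 23.6 and 19.7 CPM against 9.85 and 8.78 on day 5, and at 11.4 and 12.5 against 7.83 and 5.89 on day 10. The sh-SH2D1A libraries lay at about the same level in both Jurkat tables, and the arms did not overlap in any table. For SLC2A3 the log2 change was -0.97 ± 0.10 and -1.07 ± 0.13 in Jurkat on days 8 and 10, and -1.21 ± 0.21 and -0.80 ± 0.17 in 6T-CEM on days 5 and 10 (edgeR adjusted p = 0.00196, 0.00196, 0.0227 and 0.0183). The call in 6T-CEM was lost on day 5 without sh-NC replicate 1 and on day 10 without sh-NC replicate 2 or sh-SH2D1A replicate 2. SLC2A1 encodes GLUT1, the basal transporter. In Jurkat SLC2A1 stood at 92.5 and 98.7 CPM in sh-NC libraries against 65.8 and 68.8 in sh-SH2D1A libraries on day 8, and at 69.4 and 66.5 against 52.8 and 49.5 on day 10. In 6T-CEM SLC2A1 stood at 94.8 and 85.5 CPM against 62.1 and 58.04 on day 5, and at 72.4 and 77.85 against 81.99 and 77.5 on day 10. It was called lower in both Jurkat tables, and in 6T-CEM the arms did not overlap on day 5 and overlapped on day 10. For SLC2A1 the log2 change was -0.51 ± 0.06 and -0.41 ± 0.09 in Jurkat on days 8 and 10, and -0.58 ± 0.13 and 0.09 ± 0.05 in 6T-CEM on days 5 and 10 (edgeR adjusted p = 0.00256, 0.0331, 0.0586 and 0.329). The call at Jurkat day 10 was lost without sh-NC replicate 1 or either sh-SH2D1A library. SLC2A3 had the lower level per length, 3.51 CPM per kilobase of exon in the mean of the sh-NC groups against 17.4 for SLC2A1.

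Hexokinases trap glucose in the cell as glucose 6-phosphate. HK2, the hexokinase that hypoxia and growth signals induce, fell in all 4 tables, and HK1, the constitutive form, was called lower in Jurkat on day 8. In Jurkat HK2 stood at 109 and 97.5 CPM in sh-NC libraries against 73.3 and 66.8 in sh-SH2D1A libraries on day 8, and at 67.8 and 67.7 against 47.96 and 46.98 on day 10. In 6T-CEM HK2 stood at 117 and 113 CPM against 63.45 and 58.9 on day 5, and at 83.6 and 89.1 against 73.45 and 72.8 on day 10. For HK2 the log2 change was -0.57 ± 0.08 and -0.51 ± 0.09 in Jurkat on days 8 and 10, and -0.90 ± 0.12 and -0.24 ± 0.05 in 6T-CEM on days 5 and 10 (edgeR adjusted p = 0.00436, 0.0106, 0.00958 and 0.0134). Without sh-NC replicate 2 the call in 6T-CEM on day 10 was lost. In Jurkat HK1 stood at 93.8 and 96.96 CPM in sh-NC libraries against 67.2 and 68.65 in sh-SH2D1A libraries on day 8, and at 80.8 and 80.4 against 67.5 and 63.3 on day 10. In 6T-CEM HK1 stood at 116 and 111 CPM against 82.3 and 76.8 on day 5, and at 66.97 and 68.8 against 62.1 and 59.8 on day 10. Both sh-SH2D1A libraries of HK1 lay below both sh-NC libraries in all 4 tables. For HK1 the log2 change was -0.50 ± 0.05 and -0.30 ± 0.08 in Jurkat on days 8 and 10, and -0.50 ± 0.12 and -0.15 ± 0.05 in 6T-CEM on days 5 and 10 (edgeR adjusted p = 0.00206, 0.0864, 0.0736 and 0.0838).

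The aldolases split fructose 1,6-bisphosphate, and ALDOC, the brain-type aldolase, was among the members with the largest falls. In Jurkat ALDOC stood at 194 and 213 CPM in sh-NC libraries against 92.6 and 90.4 in sh-SH2D1A libraries on day 8, and at 83.3 and 81.05 against 35.3 and 34.4 on day 10. In 6T-CEM ALDOC stood at 92.9 and 93.4 CPM against 59.25 and 49.3 on day 5, and at 19.7 and 20.65 against 7.83 and 7.875 on day 10. The arms did not overlap in any table, and the sh-NC level in 6T-CEM on day 10 was itself the lowest of the 4 sh-NC groups. For ALDOC the log2 change was -1.16 ± 0.06 and -1.24 ± 0.09 in Jurkat on days 8 and 10, and -0.77 ± 0.14 and -1.36 ± 0.11 in 6T-CEM on days 5 and 10 (edgeR adjusted p = 0.000161, 9.47e-05, 0.02565 and 0.000191). The call in 6T-CEM on day 5 was lost without either sh-NC library. A same-strand transcript that overlaps ALDOC, AC005726.1, held 11.1% of its counts. In Jurkat ALDOA stood at 1100 and 1171 CPM in sh-NC libraries against 903 and 918 in sh-SH2D1A libraries on day 8, and at 659 and 611 against 555 and 522 on day 10. In 6T-CEM ALDOA stood at 1336 and 1215 CPM against 1203 and 955 on day 5, and at 762.5 and 775 against 720.3 and 715 on day 10. ALDOA, the aldolase of most tissues, showed smaller differences, called in Jurkat on day 8 and 6T-CEM on day 10. For ALDOA the log2 change was -0.33 ± 0.05 and -0.23 ± 0.08 in Jurkat on days 8 and 10, and -0.23 ± 0.13 and -0.10 ± 0.03 in 6T-CEM on days 5 and 10 (edgeR adjusted p = 0.00692, 0.135, 0.411 and 0.0465). The first call was lost without either sh-SH2D1A library, and the second without any one of the 4 libraries.

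**Figure D2:**
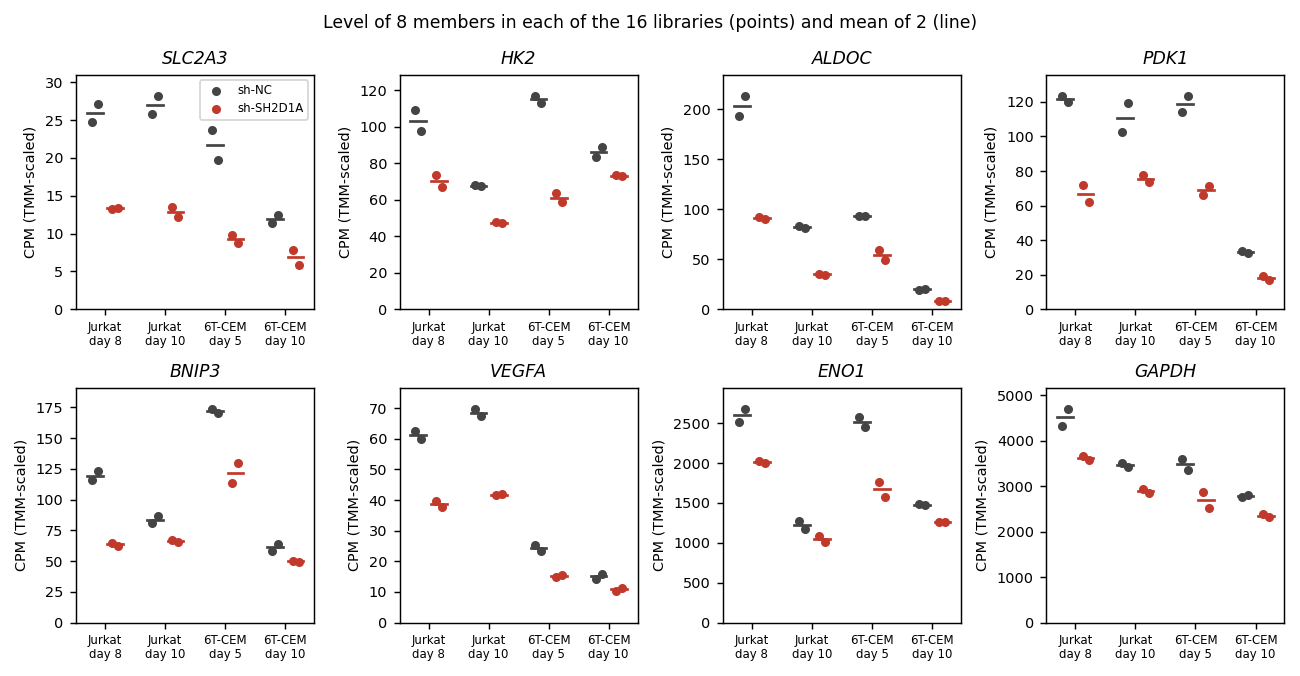
The level of 8 members, chosen after their values had been seen, in TMM-scaled CPM on linear axes from 0, in each library (points) with the mean of 2 (line), for the 4 tables. For all 8 the sh-SH2D1A libraries lie below the sh-NC libraries of the same table. The sh-NC libraries themselves differ between days. In 6T-CEM they lie higher on day 5 than on day 10 for all 8. In Jurkat they lie higher on day 8 than on day 10 for HK2, ALDOC, PDK1, BNIP3, ENO1 and GAPDH, lower for VEGFA, and overlap for SLC2A3.

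Phosphofructokinase commits sugar to glycolysis, and of its subunits PFKL, PFKM and PFKP only PFKL was called in any of the 4 tables. In Jurkat PFKL stood at 192 and 183 CPM in sh-NC libraries against 158 and 159 in sh-SH2D1A libraries on day 8, and at 176 and 154 against 155 and 142 on day 10. In 6T-CEM PFKL stood at 145.5 and 133 CPM against 121 and 82.05 on day 5, and at 122 and 127 against 127 and 121 on day 10. PFKL was called lower in Jurkat on day 8 only. In Jurkat PFKP stood at 245 and 260 CPM in sh-NC libraries against 272 and 279.5 in sh-SH2D1A libraries on day 8, and at 235 and 215.5 against 243 and 239 on day 10. In 6T-CEM PFKP stood at 198 and 175 CPM against 163 and 134 on day 5, and at 216 and 211 against 202 and 193 on day 10. PFKP, the platelet-type subunit, was called in no table, and its arms did not overlap in any. With sh-SH2D1A it lay above sh-NC in both Jurkat tables (29.1 and 24.2% of all genes) and below in both 6T-CEM tables (25.3 and 28.7%). In the difference of the changes between lines edgeR called 0 of the 8 upper glycolysis enzymes, PFKP included. At an unadjusted p under 0.05, 1 of the 8 was more negative in Jurkat and 1 more positive. For PFKP the log2 changes were 0.12 ± 0.05 and 0.10 ± 0.08 in Jurkat and -0.32 ± 0.14 and -0.11 ± 0.04 in 6T-CEM. For PFKL the log2 changes were -0.25 ± 0.05 and -0.15 ± 0.09 in Jurkat, and -0.45 ± 0.18 and -0.01 ± 0.04 in 6T-CEM, where on day 5 the 2 sh-SH2D1A libraries stood apart from each other at 121 and 82.05 CPM. PFKM, the muscle-type subunit, lay between 3.29 and 8.18 CPM, was called in no table and lies opposite SENP1, so without strand information its reads cannot be told from those of SENP1. GPI, which turns glucose 6-phosphate into fructose 6-phosphate, was called lower in Jurkat on day 8 (-0.23 ± 0.05, edgeR adjusted p = 0.0271), and its changes in the other tables lay between -0.14 and 0.07. The calls of PFKL and GPI were lost without either Jurkat day 8 sh-SH2D1A library.

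The 10 abundant enzymes, GPI, ALDOA, TPI1, GAPDH, PGK1, PGAM1, ENO1, PKM, LDHA and LDHB, had smaller median changes than the hypoxia targets. Their median log2 change was -0.31, -0.23, -0.28 and -0.18, against -0.62, -0.33, -0.48 and -0.27 for the 14 hypoxia targets outside glycolysis. No test was made of that difference between lists. In Jurkat 7 of the 10 were called lower on day 8 and 0 on day 10, and in 6T-CEM 1 on day 5 and 7 on day 10. The shares of all tested genes called lower were 7.13, 2.52, 1.51 and 7.42% in the same order. At Jurkat day 10 their changes ranged from -0.29 to 0.10, with 7 lower at an unadjusted p under 0.05, and edgeR's adjusted p was 0.0613 for GAPDH and 0.0659 for LDHA. Per kilobase of exon they held 42.9 to 1193 CPM in the mean of the sh-NC groups, with GAPDH first and ENO1 second, and the 14 hypoxia targets 0.43 to 50.25. With the length of the longest transcript GAPDH and ENO1 kept these ranks, and ALDOA went from rank 3 to rank 6.

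**Figure D3:**
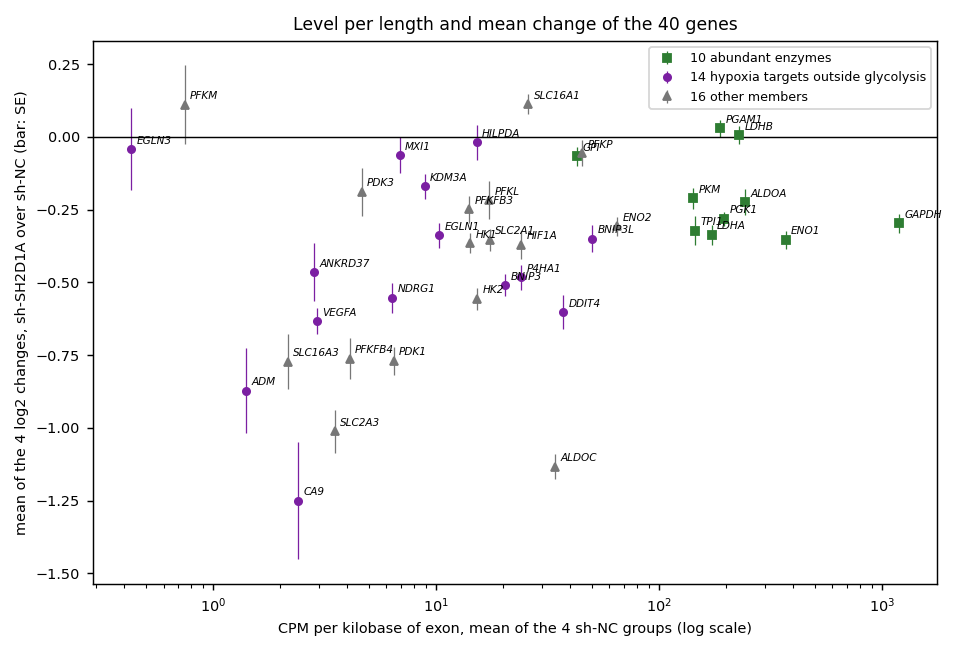
The mean of the 4 log2 changes of each member, with its standard error, against its level per kilobase of exon in the mean of the 4 sh-NC groups (log axis), for 10 abundant enzymes, 14 hypoxia targets outside glycolysis and 16 other members. The abundant enzymes lie between -0.35 and 0.03, and ALDOC and SLC2A3 lie below -1 at levels of 34.1 and 3.51 CPM per kilobase. CA9 also lies below -1, but was too low to be tested in Jurkat on day 10, and its level is 0.237 CPM per kilobase in Jurkat and 4.57 in 6T-CEM.

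ENO1, the general enolase, was called lower in 3 tables. In Jurkat ENO1 stood at 2520 and 2675 CPM in sh-NC libraries against 2027 and 2004 in sh-SH2D1A libraries on day 8, and at 1270 and 1175 against 1081 and 1006 on day 10. In 6T-CEM ENO1 stood at 2581 and 2451 CPM against 1763 and 1575 on day 5, and at 1484 and 1468 against 1257 and 1260 on day 10. For ENO1 the log2 change was -0.37 ± 0.05 and -0.23 ± 0.08 in Jurkat on days 8 and 10, and -0.58 ± 0.10 and -0.23 ± 0.02 in 6T-CEM on days 5 and 10 (edgeR adjusted p = 0.00372, 0.142, 0.0261 and 0.000657). The call was lost in Jurkat on day 8 without sh-SH2D1A replicate 2, and in 6T-CEM on day 5 without either sh-NC library. ENO2, the neuron-type enolase, was called lower in Jurkat on day 8 only, at -0.55 ± 0.05 (edgeR adjusted p = 0.00104). PGAM1, a phosphoglycerate mutase, was the one enzyme of the set called higher in a table. In Jurkat PGAM1 stood at 553 and 586 CPM in sh-NC libraries against 529.7 and 532 in sh-SH2D1A libraries on day 8, and at 401 and 407 against 410.3 and 388 on day 10. In 6T-CEM PGAM1 stood at 519 and 509 CPM against 557 and 518 on day 5, and at 441.5 and 448 against 507 and 495 on day 10. It was called higher in 6T-CEM on day 10 and in no other table. For PGAM1 the log2 change was -0.11 ± 0.05 and -0.01 ± 0.07 in Jurkat on days 8 and 10, and 0.07 ± 0.11 and 0.17 ± 0.03 in 6T-CEM on days 5 and 10 (edgeR adjusted p = 0.195, 0.949, 0.7865 and 0.00568). The call held when each of the 4 libraries was left out and was lost with all 16 libraries in the fit (edgeR adjusted p = 0.129). PGAM1 has 13 pseudogenes with its name, which held 0.389% of its counts. TPI1, PGK1 and GAPDH, the enzymes of the middle of the chain, were called lower in Jurkat on day 8 and in 6T-CEM on day 10. Their changes at Jurkat day 8 were -0.35 ± 0.05, -0.41 ± 0.05 and -0.32 ± 0.05, and in 6T-CEM on day 10 -0.18 ± 0.03, -0.19 ± 0.03 and -0.24 ± 0.02. Without either Jurkat day 8 sh-SH2D1A library the Jurkat calls of TPI1 and GAPDH were lost. PKM, a pyruvate kinase gene, was called lower in 6T-CEM on day 10 alone, at -0.21 ± 0.03 (edgeR adjusted p = 0.00138). Counts per gene cannot tell its splice forms apart.

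LDHA and LDHB are the subunits of lactate dehydrogenase, of which LDHA favours lactate formation. In Jurkat LDHA stood at 1182 and 1279 CPM in sh-NC libraries against 1026 and 987 in sh-SH2D1A libraries on day 8, and at 689 and 745 against 596 and 577 on day 10. In 6T-CEM LDHA stood at 1553 and 1587 CPM against 1176 and 1332 on day 5, and at 758.5 and 771 against 568.5 and 558 on day 10. LDHA was called lower in Jurkat on day 8 and in 6T-CEM on day 10. For LDHA the log2 change was -0.30 ± 0.05 and -0.29 ± 0.08 in Jurkat on days 8 and 10, and -0.31 ± 0.11 and -0.44 ± 0.03 in 6T-CEM on days 5 and 10 (edgeR adjusted p = 0.0131, 0.0659, 0.175 and 4.69e-05). The Jurkat call was lost without either sh-SH2D1A library. In Jurkat LDHB stood at 761 and 793 CPM in sh-NC libraries against 835 and 796.5 in sh-SH2D1A libraries on day 8, and at 666 and 676 against 746 and 692 on day 10. In 6T-CEM LDHB stood at 600.1 and 600.4 CPM against 541 and 608 on day 5, and at 690.4 and 689.8 against 659.5 and 642 on day 10. LDHB was called in no table, and its changes lay between -0.08 and 0.10. SLC16A1 and SLC16A3 encode the lactate transporters MCT1 and MCT4, of which MCT4 is the one that hypoxia induces. In Jurkat SLC16A3 stood at 28.9 and 28.3 CPM in sh-NC libraries against 14.25 and 12.7 in sh-SH2D1A libraries on day 8, and at 28.3 and 21.9 against 16.1 and 12.9 on day 10. In 6T-CEM SLC16A3 stood at 15.4 and 13.7 CPM against 8.97 and 6.33 on day 5, and at 9.69 and 9.79 against 8.94 and 6.97 on day 10. SLC16A3 was called lower in both Jurkat tables. For SLC16A3 the log2 change was -1.09 ± 0.10 and -0.79 ± 0.17 in Jurkat on days 8 and 10, and -0.92 ± 0.25 and -0.29 ± 0.17 in 6T-CEM on days 5 and 10 (edgeR adjusted p = 0.001285, 0.0269, 0.102 and 0.298). The call at Jurkat day 10 was lost without sh-NC replicate 1. It lies opposite CSNK1D, whose counts were 1020% of its own, and without strand information their reads cannot be told apart. In Jurkat SLC16A1 stood at 126 and 128.5 CPM in sh-NC libraries against 156.5 and 148 in sh-SH2D1A libraries on day 8, and at 111 and 124 against 131.5 and 128 on day 10. In 6T-CEM SLC16A1 stood at 162 and 165 CPM against 154 and 168 on day 5, and at 145 and 144 against 148 and 154.5 on day 10. SLC16A1 was called higher in Jurkat on day 8, where both sh-SH2D1A libraries lay above both sh-NC libraries, and that call was lost without either sh-SH2D1A library and with no filter (edgeR adjusted p = 0.0747). For SLC16A1 the log2 change was 0.25 ± 0.05 and 0.15 ± 0.08 in Jurkat on days 8 and 10, and -0.01 ± 0.11 and 0.07 ± 0.04 in 6T-CEM on days 5 and 10 (edgeR adjusted p = 0.0221, 0.381, 0.980 and 0.277).

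The flux regulators set how much sugar passes phosphofructokinase and how much pyruvate enters the mitochondria. PFKFB3 and PFKFB4 make fructose 2,6-bisphosphate, the activator of phosphofructokinase. In Jurkat PFKFB4 stood at 33.7 and 35.3 CPM in sh-NC libraries against 12.9 and 13.2 in sh-SH2D1A libraries on day 8, and at 17.2 and 19.7 against 13.3 and 11.9 on day 10. In 6T-CEM PFKFB4 stood at 31.9 and 33.7 CPM against 21.6 and 15.6 on day 5, and at 14.1 and 15.04 against 12.5 and 11.5 on day 10. In Jurkat on day 8 PFKFB4 had the largest fall of all members. For PFKFB4 the log2 change was -1.41 ± 0.09 and -0.55 ± 0.15 in Jurkat on days 8 and 10, and -0.81 ± 0.20 and -0.28 ± 0.12 in 6T-CEM on days 5 and 10 (edgeR adjusted p = 0.000359, 0.0778, 0.0782 and 0.168). In Jurkat PFKFB3 stood at 102 and 103 CPM in sh-NC libraries against 70.1 and 73.15 in sh-SH2D1A libraries on day 8, and at 82.3 and 79.4 against 58.6 and 62.6 on day 10. In 6T-CEM PFKFB3 stood at 99.0 and 81.1 CPM against 86.6 and 74.8 on day 5, and at 70.3 and 73.2 against 78.4 and 75.5 on day 10. PFKFB3 was lower in both Jurkat tables and not called in 6T-CEM. For PFKFB3 the log2 change was -0.53 ± 0.05 and -0.41 ± 0.09 in Jurkat on days 8 and 10, and -0.15 ± 0.15 and 0.10 ± 0.05 in 6T-CEM on days 5 and 10 (edgeR adjusted p = 0.00163, 0.0259, 0.660 and 0.200). The call at Jurkat day 10 was lost without sh-NC replicate 1 or sh-SH2D1A replicate 1. PDK1 and PDK3 are kinases that switch off pyruvate dehydrogenase. In Jurkat PDK1 stood at 123.5 and 120 CPM in sh-NC libraries against 71.65 and 62.1 in sh-SH2D1A libraries on day 8, and at 102 and 119 against 77.5 and 73.5 on day 10. In 6T-CEM PDK1 stood at 114 and 123 CPM against 66.3 and 71.2 on day 5, and at 33.8 and 32.7 against 19.2 and 17.1 on day 10. PDK1 fell in all 4 tables, and its arms did not overlap in any. For PDK1 the log2 change was -0.87 ± 0.07 and -0.55 ± 0.09 in Jurkat on days 8 and 10, and -0.78 ± 0.12 and -0.87 ± 0.09 in 6T-CEM on days 5 and 10 (edgeR adjusted p = 0.000962, 0.0107, 0.0172 and 0.000552). Without either sh-NC library the call in 6T-CEM on day 5 was lost. In Jurkat PDK3 stood at 16.4 and 17.1 CPM in sh-NC libraries against 15.25 and 14.5 in sh-SH2D1A libraries on day 8, and at 18.0 and 15.9 against 11.5 and 15.6 on day 10. In 6T-CEM PDK3 stood at 39.4 and 41.35 CPM against 33.1 and 33.5 on day 5, and at 15.4 and 20.6 against 15.9 and 20.4 on day 10. PDK3 was called in no table.

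HIF1A, which encodes the oxygen-regulated subunit itself, was called lower in 3 tables. In Jurkat HIF1A stood at 92.0 and 98.3 CPM in sh-NC libraries against 68.1 and 71.9 in sh-SH2D1A libraries on day 8, and at 93.2 and 102.5 against 69.96 and 75.8 on day 10. In 6T-CEM HIF1A stood at 182 and 199.8 CPM against 133 and 164 on day 5, and at 112 and 117 against 93.9 and 98.5 on day 10. For HIF1A the log2 change was -0.45 ± 0.06 and -0.42 ± 0.09 in Jurkat on days 8 and 10, and -0.35 ± 0.13 and -0.25 ± 0.04 in 6T-CEM on days 5 and 10 (edgeR adjusted p = 0.00434, 0.0269, 0.220 and 0.00734). The call at Jurkat day 10 was lost without sh-NC replicate 2 or sh-SH2D1A replicate 1. HIF-1α is controlled mainly at the level of the protein, which was not measured here.

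Among the 14 hypoxia targets outside glycolysis 10 were called lower in Jurkat on day 8, 5 of 13 tested on day 10, 0 in 6T-CEM on day 5 and 6 on day 10, and 0 were called higher in any table by edgeR. The shares of all tested genes were 7.13, 2.52, 1.51 and 7.42% lower, and 5.23, 1.26, 0.606 and 6.61% higher, in the same order. In 6T-CEM on day 5, 7 of the 14 were lower at an unadjusted p under 0.05, and 0 were higher at that p in any table. BNIP3 encodes a mitophagy receptor. In Jurkat BNIP3 stood at 116 and 123 CPM in sh-NC libraries against 65.1 and 62.5 in sh-SH2D1A libraries on day 8, and at 80.6 and 86.7 against 67.2 and 65.3 on day 10. In 6T-CEM BNIP3 stood at 174 and 170.1 CPM against 114 and 129.8 on day 5, and at 58.6 and 63.7 against 50.1 and 49.3 on day 10. For BNIP3 the log2 change was -0.91 ± 0.06 and -0.33 ± 0.09 in Jurkat on days 8 and 10, and -0.49 ± 0.12 and -0.30 ± 0.06 in 6T-CEM on days 5 and 10 (edgeR adjusted p = 0.000324, 0.0612, 0.0806 and 0.0129). The call in 6T-CEM on day 10 was lost without sh-NC replicate 2. BNIP3 has 44 pseudogenes with its name, which held 3.84% of its counts. In Jurkat BNIP3L stood at 178 and 187 CPM in sh-NC libraries against 134 and 122 in sh-SH2D1A libraries on day 8, and at 137 and 148 against 117 and 120.4 on day 10. In 6T-CEM BNIP3L stood at 406 and 423 CPM against 289 and 356 on day 5, and at 130.1 and 122.5 against 110.2 and 101 on day 10. BNIP3L, its relative, was called lower in Jurkat on day 8 and 6T-CEM on day 10. For BNIP3L the log2 change was -0.52 ± 0.06 and -0.26 ± 0.08 in Jurkat on days 8 and 10, and -0.35 ± 0.13 and -0.26 ± 0.05 in 6T-CEM on days 5 and 10 (edgeR adjusted p = 0.00280, 0.111, 0.198 and 0.01525). The call in 6T-CEM on day 10 was lost without sh-NC replicate 1. PNMA2 lies opposite BNIP3L with 60% of its counts.

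VEGFA, the main angiogenic factor, was called lower in 3 tables. In Jurkat VEGFA stood at 62.4 and 60.04 CPM in sh-NC libraries against 39.8 and 37.6 in sh-SH2D1A libraries on day 8, and at 69.65 and 67.45 against 41.8 and 41.8 on day 10. In 6T-CEM VEGFA stood at 25.4 and 23.5 CPM against 14.85 and 15.5 on day 5, and at 14.3 and 15.85 against 10.3 and 11.4 on day 10. The arms did not overlap in any table, and the Jurkat levels lay above those of 6T-CEM in the same arm. For VEGFA the log2 change was -0.67 ± 0.07 and -0.71 ± 0.09 in Jurkat on days 8 and 10, and -0.68 ± 0.18 and -0.47 ± 0.12 in 6T-CEM on days 5 and 10 (edgeR adjusted p = 0.00164, 0.00200, 0.0970 and 0.0416). Without sh-NC replicate 2 or either sh-SH2D1A library the call in 6T-CEM on day 10 was lost. DDIT4 encodes REDD1, an inhibitor of mTORC1. In Jurkat DDIT4 stood at 81.4 and 85.8 CPM in sh-NC libraries against 44.9 and 44.5 in sh-SH2D1A libraries on day 8, and at 93.6 and 86.9 against 63.7 and 61.4 on day 10. In 6T-CEM DDIT4 stood at 94.3 and 81.4 CPM against 63.3 and 46.7 on day 5, and at 43.6 and 43.8 against 35.1 and 35.9 on day 10. DDIT4 was also called in 3 tables. For DDIT4 the log2 change was -0.91 ± 0.06 and -0.53 ± 0.09 in Jurkat on days 8 and 10, and -0.67 ± 0.17 and -0.30 ± 0.06 in 6T-CEM on days 5 and 10 (edgeR adjusted p = 0.000397, 0.00841, 0.0842 and 0.0152). The call at 6T-CEM day 10 was lost without sh-SH2D1A replicate 1. P4HA1 encodes a subunit of the collagen prolyl 4-hydroxylase. In Jurkat P4HA1 stood at 64.4 and 65.7 CPM in sh-NC libraries against 33.1 and 37.8 in sh-SH2D1A libraries on day 8, and at 50.01 and 57.01 against 36.5 and 38.3 on day 10. In 6T-CEM P4HA1 stood at 141 and 148 CPM against 117 and 125 on day 5, and at 35.5 and 33.4 against 28.8 and 28.02 on day 10. For P4HA1 the log2 change was -0.88 ± 0.08 and -0.52 ± 0.10 in Jurkat on days 8 and 10, and -0.25 ± 0.12 and -0.27 ± 0.07 in 6T-CEM on days 5 and 10 (edgeR adjusted p = 0.00105, 0.0201, 0.319 and 0.0432). Its call at Jurkat day 10 was lost without sh-NC replicate 2 or sh-SH2D1A replicate 1, and that in 6T-CEM on day 10 without any one of the 4 libraries.

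CA9, a cell-surface carbonic anhydrase and one of the most hypoxia-dependent genes known, was measured mostly in 6T-CEM. In Jurkat CA9 stood at 0.541 and 0.482 CPM in sh-NC libraries against 0.577 and 0.422 in sh-SH2D1A libraries on day 8, and at 0.3495 and 0.213 against 0.0649 and 0.137 on day 10. In 6T-CEM CA9 stood at 14.5 and 11.7 CPM against 8.40 and 4.94 on day 5, and at 1.99 and 2.32 against 0.371 and 0.361 on day 10. In Jurkat it stood on 2 to 18 counts per library. For CA9 the log2 change was -0.04 ± 0.47 in Jurkat on day 8, and -0.96 ± 0.29 and -2.54 ± 0.33 in 6T-CEM on days 5 and 10 (edgeR adjusted p = 0.972, 0.138 and 0.00178). In 6T-CEM on day 10 the counts were 59 and 74 with sh-NC and 12 in each sh-SH2D1A library, and the call held when each library was left out. CA9 lies opposite ARHGEF39, whose counts were 1580% of its own, and without strand information their reads cannot be told apart. ADM, the vasodilator adrenomedullin, was called lower in Jurkat on day 8. In Jurkat ADM stood at 2.58 and 2.95 CPM in sh-NC libraries against 1.12 and 1.37 in sh-SH2D1A libraries on day 8, and at 2.06 and 2.56 against 0.876 and 1.54 on day 10. In 6T-CEM ADM stood at 8.98 and 8.24 CPM against 4.54 and 3.62 on day 5, and at 1.245 and 1.85 against 1.145 and 1.32 on day 10. Its levels were low, on 27 to 264 counts per library. For ADM the log2 change was -1.16 ± 0.27 and -0.93 ± 0.36 in Jurkat on days 8 and 10, and -1.07 ± 0.26 and -0.33 ± 0.32 in 6T-CEM on days 5 and 10 (edgeR adjusted p = 0.0300, 0.194, 0.0809 and 0.564). Its call was lost without sh-NC replicate 2 or either sh-SH2D1A library. EGLN3, one of the HIF prolyl hydroxylases, had no call. In Jurkat EGLN3 stood at 3.21 and 4.16 CPM in sh-NC libraries against 5.16 and 2.88 in sh-SH2D1A libraries on day 8, and at 4.19 and 3.34 against 4.87 and 4.50 on day 10. In 6T-CEM EGLN3 stood at 3.47 and 3.51 CPM against 2.82 and 1.998 on day 5, and at 1.78 and 1.63 against 1.58 and 1.65 on day 10. For EGLN3 the log2 change was 0.12 ± 0.30 and 0.32 ± 0.23 in Jurkat on days 8 and 10, and -0.52 ± 0.33 and -0.08 ± 0.27 in 6T-CEM on days 5 and 10 (edgeR adjusted p = 0.842, 0.512, 0.465 and 0.889). SPTSSA overlaps it on the same strand with 954% of its counts.

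The remaining hypoxia targets were NDRG1, EGLN1, ANKRD37, KDM3A, MXI1 and HILPDA. NDRG1, a stress-response gene, and EGLN1, the main HIF prolyl hydroxylase, were called lower in both Jurkat tables, NDRG1 at -0.76 ± 0.08 and -0.59 ± 0.09 and EGLN1 at -0.57 ± 0.06 and -0.43 ± 0.09. The EGLN1 call on day 10 was lost without either sh-NC library or sh-SH2D1A replicate 1. ANKRD37 (-0.79 ± 0.16) and KDM3A, a histone demethylase (-0.35 ± 0.06), were called lower in Jurkat on day 8 only, and both calls were lost without either sh-SH2D1A library. UFSP2 lies opposite ANKRD37 with 361% of its counts. MXI1, an antagonist of MYC, and HILPDA, a lipid droplet protein, were called in no table, and their changes lay between -0.32 and 0.13 and between -0.15 and 0.08.

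The balance within isoform pairs was compared as the log2 ratio of the 2 genes in each library, which needs no scaling between libraries. The 11 pairs were tested by an exact permutation test, two-sided, in which the arms were exchanged within each table over 1296 arrangements. The smallest p it allows is 0.001543, and a single table of 2 against 2 cannot go below 0.333. The pairs were chosen with earlier results of these data known, which these p-values do not take into account. Some pairs join a member called lower in all 4 tables (SLC2A3, HK2, ALDOC or PDK1) with a member called in fewer. Their ratios restate those calls in part. SLC16A3 carries the limit given above for reads of CSNK1D. In all 4 tables the ratio of SLC2A1 to SLC2A3 was higher with sh-SH2D1A, by 0.66 in the mean, that of ALDOA to ALDOC by 0.91 and that of SLC16A1 to SLC16A3 by 0.89, while that of LDHA to LDHB was lower, with a mean of -0.34. Each of these 4 had the smallest exact permutation p, or 0.00424 adjusted over the 11 pairs, and no overlap between arms in any table.

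Among the other pairs the ratio of PFKFB3 to PFKFB4 was higher by 0.52 (exact permutation p = 0.00309, adjusted 0.00566) and that of HK1 to HK2 by 0.19 (exact permutation p = 0.00772, adjusted 0.0121). The ratio of PDK1 to PDK3 was lower, with a mean of -0.58 (exact permutation p = 0.00309, adjusted 0.00566), as was that of BNIP3 to BNIP3L, at -0.16 (exact permutation p = 0.0170, adjusted 0.0233). In each of these 4 pairs the arms did not overlap in 3 tables. PFKL to PFKP gave -0.17 (exact permutation p = 0.0309, adjusted 0.0377), with -0.37 and -0.25 in Jurkat, -0.15 in 6T-CEM on day 5 and 0.10 on day 10, and 11 of the 16 runs without one library lost that call. ENO1 to ENO2 (mean -0.05, exact permutation p = 0.378) and EGLN1 to EGLN3 (mean -0.28, exact permutation p = 0.145, adjusted 0.160) did not pass. Without 6T-CEM day 5 sh-SH2D1A replicate 2, EGLN1 to EGLN3 passed at -0.37 (adjusted 0.0233), and BNIP3 to BNIP3L no longer passed without 6T-CEM day 10 sh-NC replicate 2 or sh-SH2D1A replicate 1 (adjusted 0.0679 and 0.0698).

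**Figure D4:**
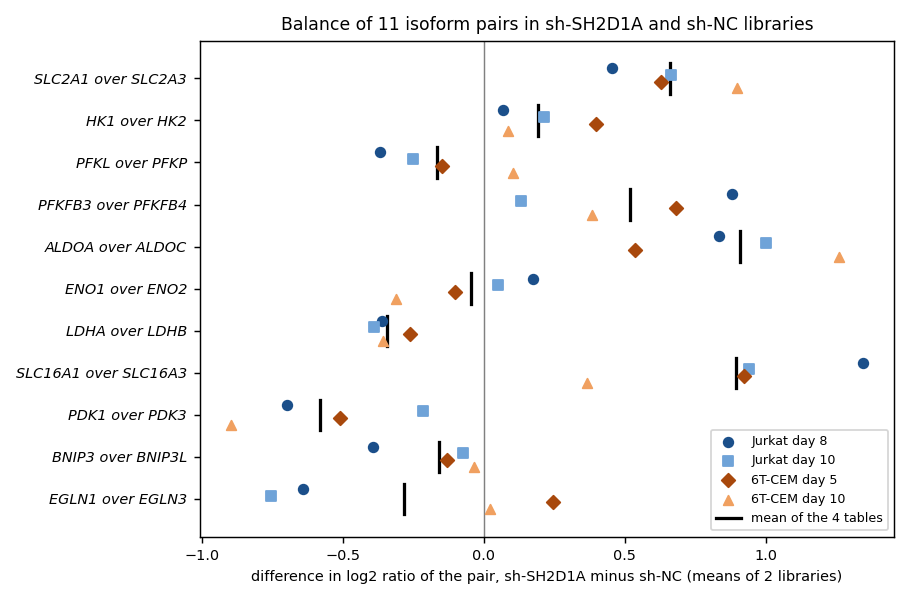
The difference in log2 ratio between sh-SH2D1A and sh-NC (means of 2 libraries) for 11 isoform pairs in the 4 tables (markers), with the mean of the 4 as a black line. ALDOA over ALDOC, SLC16A1 over SLC16A3 and SLC2A1 over SLC2A3 lie right of 0 in all 4 tables, LDHA over LDHB lies left of 0 in all 4, and ENO1 over ENO2 is on both sides.

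The changes were set between lines and days in the fit of all 16 libraries. Between Jurkat and 6T-CEM 2 of 40 members had a more negative change in Jurkat (0.69% of 22032 genes) and 0 a more positive one (1.21%), with 4 more positive at an unadjusted p under 0.05. They were PFKFB3, with a difference of -0.44 ± 0.09 (edgeR adjusted p = 0.0271), and P4HA1, with -0.43 ± 0.09 (edgeR adjusted p = 0.0195). With the libraries of day 10, the day both lines share, P4HA1 was not called (-0.24 ± 0.12, edgeR adjusted p = 0.418) and PFKFB3 was (-0.51 ± 0.09, edgeR adjusted p = 0.0181). Neither was called without 6T-CEM day 10 sh-NC replicate 2, 6T-CEM day 10 sh-SH2D1A replicate 1, Jurkat day 8 sh-NC replicate 2, Jurkat day 8 sh-SH2D1A replicate 1 or Jurkat day 10 sh-SH2D1A replicate 1. Between the Jurkat days edgeR called 0 members lower (0.00454% of all genes) and 0 higher (0%), with 0 and 9 at an unadjusted p under 0.05. BNIP3 and PFKFB4 differed by 0.57 ± 0.11 and 0.85 ± 0.20 (edgeR adjusted p = 0.203 and 0.432).

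Between the 6T-CEM days the change was less negative on day 10 for 3 members (0.404% of all genes) and more negative for 0 (0.277%), with 2 more negative at an unadjusted p under 0.05. The 3 were SLC2A1 (0.67 ± 0.11), HK2 (0.67 ± 0.11) and ENO2 (0.57 ± 0.09), with edgeR adjusted p = 0.0132, 0.0119 and 0.0124. The change of SH2D1A was less negative on day 10 as well, as given above, and the part of that difference in these calls was not tested. The 3 calls fell to 0 without 6T-CEM day 10 sh-NC replicate 1, sh-NC replicate 2 or sh-SH2D1A replicate 1, and to 1 without its sh-SH2D1A replicate 2, and rose to 12 without 6T-CEM day 5 sh-SH2D1A replicate 1.

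The sh-NC libraries alone also differed between days. These comparisons share their sh-NC libraries with those above, and since each day is a table of its own, day and table cannot be told apart. In Jurkat 16 of 40 members were lower on day 10 than on day 8 (1.57% of 22032 genes), and 0 were higher by edgeR (1.83%), also at an unadjusted p under 0.05. Of the 10 abundant enzymes 9 were among the 16, and 3 of the 14 hypoxia targets outside glycolysis. ENO1, at 2520 and 2675 CPM on day 8 and 1270 and 1175 on day 10, differed by -1.09 ± 0.06, and GPI, at 681 and 729 CPM against 331.3 and 331.2, by -1.09 ± 0.06. PGK1 differed by -1.01 ± 0.05 and ALDOC by -1.31 ± 0.08 (edgeR adjusted p between 1.6e-07 and 1.54e-06 for these 4). The median of the abundant enzymes was -0.70 and that of the hypoxia targets -0.25, without a test between the lists. Without Jurkat day 8 sh-NC replicate 2, 9 in place of 16 members were called.

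In 6T-CEM 32 of 40 members were lower on day 10 than on day 5 in sh-NC libraries (20.6% of all genes) and 1 was higher (19.3%). There the hypoxia targets outside glycolysis had a median of -1.07 and 12 of 14 called lower, and the abundant enzymes a median of -0.46 and 8 of 10 called lower, a difference between lists that was not tested. CA9 differed by -2.60 ± 0.30, ADM by -2.47 ± 0.29, ALDOC by -2.21 ± 0.09, P4HA1 by -2.07 ± 0.09 and PDK1 by -1.84 ± 0.10. LDHB was the 1 member called higher, at 0.20 ± 0.06 (edgeR adjusted p = 0.0188). P4HA1, at 141 and 148 CPM in the day 5 sh-NC libraries and 35.5 and 33.4 in those of day 10, differed between arms by -0.25 ± 0.12 on day 5 and -0.27 ± 0.07 on day 10. Without one library the count ranged from 25 to 32.

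**Figure D5:**
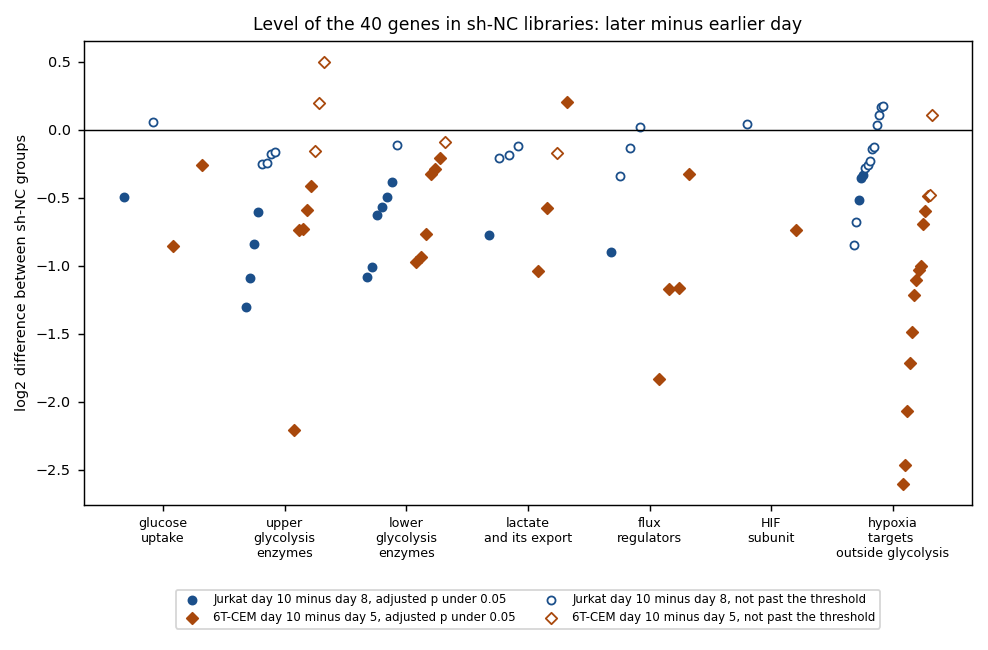
The log2 difference between sh-NC groups, later minus earlier day, for the 40 genes by role, in Jurkat (day 10 minus day 8) and 6T-CEM (day 10 minus day 5). Filled markers are past the threshold. Most members lie below 0 in both lines, the lower glycolysis enzymes reach -1.09 in Jurkat, and the hypoxia targets reach -2.60 in 6T-CEM.

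Between the lines the sh-NC libraries did not differ in one direction. Each line has tables of its own, so line and table cannot be told apart here, also with day 10 alone. Of 40 members 18 were higher in Jurkat (25.9% of 22032 genes) and 13 lower (24.9%). VEGFA (1.75 ± 0.06), ALDOC (1.58 ± 0.06), SLC16A3 (1.17 ± 0.13) and PDK1 (0.89 ± 0.07) were higher in Jurkat. CA9 (-3.79 ± 0.25), MXI1 (-0.77 ± 0.09), PDK3 (-0.68 ± 0.12) and HIF1A (-0.62 ± 0.07) were higher in 6T-CEM. With the day 10 libraries alone, PDK3 was not called (-0.09 ± 0.19, edgeR adjusted p = 0.732), HIF1A stood at -0.23 ± 0.07 and PDK1 at 1.73 ± 0.09. P4HA1 went from -0.26 ± 0.06 to 0.63 ± 0.09 and KDM3A from -0.31 ± 0.06 to 0.23 ± 0.07, so that the direction for P4HA1 and KDM3A depends on which days are compared. A further 4 members, given in the closing section, changed sign without a call in the day 10 libraries.

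Of the pathway's other genes, the further hypoxia targets were mostly called lower where they were called. Of 39 such genes 13 of the 30 tested were called lower in Jurkat on day 8, 4 of 30 on day 10, 5 of 31 in 6T-CEM on day 5 and 10 of 31 on day 10, and 1 was called higher, in the last table. Among all tested genes 7.13, 2.52, 1.51 and 7.42% were called lower in these tables, and 6.61% higher in the last. In the mean of the 4 changes 18 of 33 tested were lower (12.3% of 22032 genes) and 1 higher (10.7%). The genes named next are all lower ones. GBE1, the glycogen branching enzyme, BHLHE40, a transcriptional repressor, and PPFIA4 were called lower in all 4 tables, with mean changes of -0.84 ± 0.04, -1.38 ± 0.09 and -0.73 ± 0.07, and FUT11 had a mean of -0.53 ± 0.06. These lists were also drawn up with earlier results of these data known.

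Another list held other glycolysis genes. Of 34 genes, tissue-specific isoforms and further sugar and lactate transporters, 1 of 22 tested was called lower in Jurkat on day 8, 0 of 23 on day 10, 0 of 22 in 6T-CEM on day 5 and 3 of 21 on day 10 by edgeR, and 1, 0, 0 and 1 higher. Over all tested genes 7.13, 2.52, 1.51 and 7.42% were called lower in these tables, and 5.23, 1.26, 0.606 and 6.61% higher. At an unadjusted p under 0.05 the lower counts were 5, 3, 5 and 6 and the higher counts 2, 0, 0 and 3. For the mean changes that follow, 12.3% of 22032 genes were called lower and 10.7% higher. In the mean of the 4 changes 6 of 23 were lower and 1 higher. Among the 6 were EMB, an ancillary protein of lactate transporters (-0.42 ± 0.06), SLC2A13 (-0.40 ± 0.07), the muscle enolase ENO3 (-0.32 ± 0.06) and SLC2A6 (-0.36 ± 0.09). The higher one was PGAM5 (0.19 ± 0.05). It encodes a mitochondrial protein phosphatase and is no glycolysis enzyme, despite its name and its place in the list. Among 13 genes of pyruvate entry into mitochondria 4 of 12 tested were lower in the mean and 0 higher, of which PDHX (-0.37 ± 0.05) and the pyruvate carrier subunit MPC2 (-0.33 ± 0.04) had the lowest p. In the pentose phosphate pathway 4 of 12 were lower and 3 higher, with RPE, ribulose 5-phosphate epimerase, at -0.61 ± 0.05, and with TALDO1, transaldolase, at 0.23 ± 0.04. In the tricarboxylic acid cycle 5 of 17 were lower and 0 higher, with SDHD, a subunit of succinate dehydrogenase, called in all 4 tables (mean -0.68 ± 0.05), and with SDHA at -0.25 ± 0.03.

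The machinery that controls HIF did not move in one direction. Of 14 genes 12 were tested. In the mean of the 4 changes 4 were lower (12.3% of 22032 genes) and 3 higher (10.7%). EPAS1, which encodes HIF-2α, had -0.81 ± 0.12 at a level of 7.04 CPM, HIF1AN, an asparagine hydroxylase that restrains HIF, -0.21 ± 0.03, and ARNT, the partner of HIF1A in the dimer, -0.22 ± 0.05. VHL, which targets hydroxylated HIF for degradation, had 0.16 ± 0.03 and the coactivator CREBBP 0.15 ± 0.03.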

How the data were processed

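The authors deposited raw counts of reads per gene, as 4 tables with 4 libraries each. Total RNA was extracted with TRIzol and libraries were made with a TruSeq kit and read on a NovaSeq, per the labels' protocols. HISAT2 2.2.0 and StringTie and the build hg38 are named in the submitters' processing notes. For the annotation release, strand setting and counting step nothing is stated (not given in the sources used here). Total counts were 27217899 to 33788024 per library.

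The 40 members were found by symbol. The members, the isoform pairs and the other gene lists were chosen with earlier results of these data known. Each table was tested on its own with edgeR 4.0.16 (R 4.3.3): filterByExpr with a minimum count of 10, TMM scaling and the quasi-likelihood test of sh-SH2D1A against sh-NC, with Benjamini-Hochberg adjustment over all genes tested and a threshold of 0.05. Differences between lines and days came from one fit of all 16 libraries by group. The isoform ratios used log2 of counts plus 0.5. Values in every library are given for members called in at least 3 tables, called higher, called in the difference between lines or in an isoform pair whose ratio moved, and for HIF1A, BNIP3, CA9, VEGFA, ADM, EGLN3 and DDIT4. Of each other list, up to 4 genes with the lowest adjusted p in the mean change and up to 2 called in the opposite direction are named. Of the further hypoxia targets, none called higher is named. The scripts were tested on simulated data. Alternatives were DESeq2 1.42.0 (its size factors, and its Wald test), no filter, a 2-fold threshold, all 16 libraries in one fit, a replicate block, and each library left out. The deviations of libraries with equal replicate numbers correlated at 0.00636 to 0.0181 over 22032 genes. A correlation over all genes cannot exclude a pairing that shows in some of them, so whether equal numbers pair the libraries is not settled.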

Additional observations from a re-analysis of the deposited data

Results flagged for a closer look

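The change with sh-SH2D1A differed between the lines, by a test of the difference itself in the fit of all 16 libraries, for PFKFB3 (-0.44 on the log2 scale, Jurkat minus 6T-CEM, edgeR adjusted p = 0.0271) and P4HA1 (-0.43, edgeR adjusted p = 0.0195). With the day 10 libraries alone P4HA1 was no longer called (-0.24, edgeR adjusted p = 0.418). It differed between the 6T-CEM days, day 10 minus day 5, for SLC2A1 (0.67, edgeR adjusted p = 0.0132), HK2 (0.67, edgeR adjusted p = 0.0119) and ENO2 (0.57, edgeR adjusted p = 0.0124). As given above, none of these 5 differences was called in every run without one library.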

How the results depend on the processing

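Of the 129 recomputed counts of called members 91 stayed within 1.5 times the value reported and 38 did not. Members called lower in Jurkat at day 8 (29) numbered 4 past a 2-fold threshold and 19 to 31 without one library. In Jurkat at day 10 (13) they numbered 23 by the DESeq2 Wald test, 0 where low counts were not filtered (0 genes of the table passed in edgeR, and 26 members were lower at an unadjusted p under 0.05), 2 past a 2-fold threshold and 8 to 13 without one library. In 6T-CEM at day 5 (5) they numbered 19 by the DESeq2 Wald test, 26 with all 16 libraries in the fit, 1 past a 2-fold threshold and 1 to 23 without one library. In 6T-CEM at day 10 (18) they numbered 9 with no filter, 9 with all 16 libraries in the fit, 2 past a 2-fold threshold and 12 to 16 without one library. The higher call of PGAM1 in that table was lost with all 16 libraries in the fit. Without one library the mean of the 4 changes gave 29 to 30 lower members (30), the difference between lines 0 to 7 (2), the difference between 6T-CEM days 0 to 12 higher (3), and the sh-NC difference between Jurkat days 9 to 14 (16). Whether libraries of equal replicate number are paired is not settled here. With the replicate block the lower counts were 23 in Jurkat at day 10, 24 in 6T-CEM at day 5 and 4 for the difference between lines. The block moved no other of these counts by over 1.5 times. The cause of these shifts was not tested. With the day 10 libraries only, the sh-NC difference between Jurkat and 6T-CEM changed sign for TPI1 (-0.0511), LDHB (-0.0438), BNIP3L (0.17), ADM (0.57), P4HA1 (0.63) and KDM3A (0.23). Of these only P4HA1 and KDM3A were called there (edgeR adjusted p = 0.398, 0.506, 0.0591 and 0.198 for the first 4). With 2 libraries a group, and 2 to 18 counts for CA9 in Jurkat, depth and number of libraries both limit what could be called.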
